A study of Mus musculus with 10 samples.

Results

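The transcriptome of the cochlea of non-treated 12-month-old mice was described from the 5 Vehicle samples, which are 5 of the 10 samples in the series. They were chosen by their treatment label alone, and the NR-treated mice were not used. RNA came from the whole cochlea of mtKeima mice, 1 library per mouse, in a study of long-term NAD+ supplementation and age-related hearing loss. These animals carry a transgene for a pH-dependent fluorescent protein that is placed in mitochondria, so that mitochondria inside lysosomes can be seen. According to the methods the strain is on a mixed background and is wild type at Cdh23, which carries a hearing loss allele in several inbred strains, and at the nicotinamide nucleotide transhydrogenase gene. All 5 mice drank regular water until they were 12 months old. They are named mouse 1 to mouse 5 after the replicate numbers of the labels. With 1 group there is no comparison of conditions, so values are given with their spread over mice and with no test.

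The cochlea is the coiled bone-encased organ of hearing. Its sensory epithelium holds inner and outer hair cells among supporting cells, under a tectorial membrane that the supporting cells make. The stria vascularis on the lateral wall pumps potassium into the endolymph, with the help of fibrocytes of the spiral ligament, and the spiral ganglion neurons in the central axis carry the signal to the brainstem along axons wrapped by Schwann cells and, closer to the brain, by oligodendrocytes. The bone around these tissues holds marrow, and the wall of the middle ear lies against it. A library of the whole organ therefore mixes many cell types, and in such a mixture fewer cells of a type and less RNA per cell cannot be told apart.

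The depth was even. Each mouse had a total count of 20004667 to 24419230 (median 23007355). Levels are given on 3 scales. CPM (counts per 1e6 counts of the mouse) is a share of reads. TPM also divides by the length of the gene and is used to compare genes. Scaled CPM uses library sizes adjusted by TMM factors, which lay between 0.966 and 1.02, and is used to compare mice. The labels give the sex as female, whereas the methods describe males. In the counts, Xist, which is transcribed from the inactive X chromosome of female cells, was between 0.0869 and 0.256 CPM. The Y-linked genes Ddx3y, at 69.5 to 83.8 CPM, and Eif2s3y, at 58.8 to 66.4 CPM, were counted in all 5 mice. The levels of all 5 libraries thus go against the sex given in the labels. Mouse 2 and mouse 1 stood apart from the others in the number of genes high in a single mouse. Mouse 2 had 29 genes of at least 10 scaled CPM at 4 or more times the level of any other mouse, together 6.04% of its counts, and mouse 1 had 27 such genes with 0.0983% of its counts. The other mice had 5, 2 and 0. Results that could rest on these libraries are therefore also given without both.

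Of 54532 genes in the files, 31101 had a count in at least 1 mouse and 21605 in every mouse. At least 1 CPM was reached in all 5 mice by 15441 genes, of which 14262 were protein-coding, out of 22046 protein-coding genes in the files. These 15441 genes are referred to as detected. In single mice, 16250 to 16554 genes reached 1 CPM, so the number differed little between animals. The counts were spread over many genes rather than held by a few. Ordered by mean CPM, 1388 genes held 50% of the counts and 7549 held 90%, and without mice 1 and 2 the first number was 1402. Only 58 genes had a mean of 1000 CPM or more, and they held 14.07% ± 1.40 (SD, n = 5) of the counts. The next class, from 100 to 1000 CPM, comprised 2205 genes and held the largest share, 46.2% ± 0.560. A further 9377 genes between 10 and 100 CPM held 37.5% ± 1.01. The 4837 genes between 1 and 10 CPM held 2.01% ± 0.120, and the 14624 genes under 1 CPM held 0.244% ± 0.0136. The 10 most counted genes of a mouse took 6.62%, 9.13%, 6.18%, 6.49% and 6.27% of its counts in mice 1 to 5. Mouse 2 was thus the most concentrated library, and 1211 genes held 50% of its counts against 1368 to 1456 in the others.

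**Figure D1:**
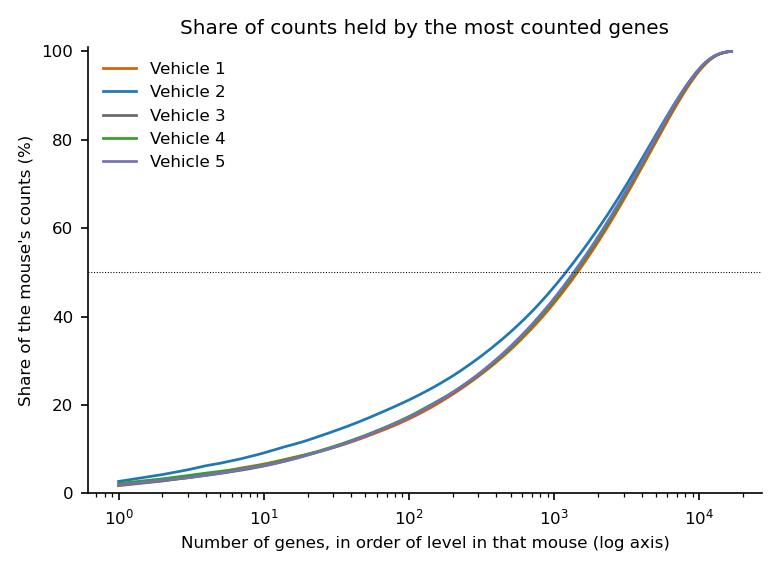
Share of each mouse's counts (vertical axis, %) held by its most counted genes (horizontal axis, number of genes, log axis), with 1 line per mouse. The line of mouse 2 runs above the other 4, reaching 50% (dotted line) at 1211 genes against 1368 to 1456.

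The gene with the highest level was Ptgds, which encodes lipocalin-type prostaglandin D synthase. It was at 17343, 15439, 18666, 22367 and 19077 CPM in mice 1 to 5, and its mean of 18578 ± 2549 CPM was 1.89% of the counts of protein-coding genes. It ranked first by TPM as well, at 34670 ± 5766. Mouse 2, where Ptgds was lowest, was the only mouse in which a different gene, Bpifb1, took a larger share. Apod, encoding the secreted lipid carrier apolipoprotein D, had rank 3 by CPM at 5922 ± 1097 and rank 8 by TPM at 7081 ± 1524. Apoe, another apolipoprotein, had 2843 ± 353 CPM, and Psap, the precursor of the saposins that activate lysosomal lipid breakdown, had 2220 ± 136 CPM. Ptgds and Apod were highest in mouse 4, Apoe in mice 3 and 4 alike, and Psap in mouse 2.

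Genes of the inner ear stood beside these. Coch, which encodes cochlin, the main matrix protein of the fibrocyte regions and a hereditary deafness gene, was at 3106, 2013, 4258, 3009 and 2429 CPM. Mouse 3 was the highest and mouse 2 the lowest, with a scaled level 2.01 times apart. Fbxo2, which encodes a ubiquitin ligase subunit enriched in the organ of Corti, had 4398 ± 1764 TPM, with 1293, 1376, 2566, 2598 and 1327 CPM. Mice 3 and 4 were set apart from the other 3 for this gene. S100b, a calcium-binding protein of glia, had 2375 ± 586 CPM, again highest in mice 3 and 4. Fth1, the heavy chain of the iron store ferritin, had 2985 ± 299 CPM, and the elongation factor Eef1a1 had 2800 ± 200.

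The list of highest genes also held transcripts of blood and of mucosa. The adult beta globin Hbb-bs was at 8546, 5517, 3516, 1979 and 5028 CPM, and the alpha globin Hba-a1 had a mean of 3495 CPM. Both were highest in mouse 1 and lowest in mouse 4. By TPM the beta globin had rank 3, at 19441 ± 9330. Bpifb1, a secreted protein of the airway lining, had rank 5 by mean CPM only through mouse 2, where it had 27012 CPM against 5.50, 11.3, 2.87 and 18.1 in mice 1, 3, 4 and 5. Lipf, gastric lipase, was likewise at 10828 CPM in mouse 2 and between 0.217 and 4.20 CPM elsewhere. By the median over mice these genes had ranks 11195 and 14290, and the other 18 of the 20 highest genes were the same by mean and by median. Without mice 1 and 2, 18 of the 20 also remained among the 20 highest. Of the 100 highest genes of each mouse, 71 were shared by all 5 mice, and pairs of mice shared 77 to 90.

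**Figure D2:**
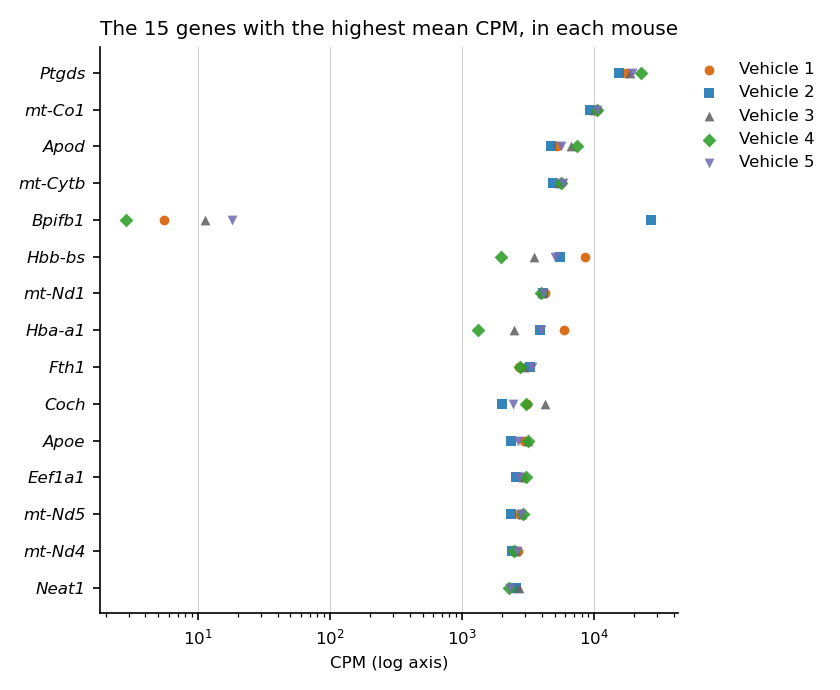
The 15 genes with the highest mean CPM (rows, in order), with a point for each mouse on a log axis of CPM. The points of a gene lie close together except for Hbb-bs and Hba-a1, which are highest in mouse 1, and Bpifb1, which is at 27012 CPM in mouse 2 and at most 18.1 in the others.

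Ranked by TPM, 15 of the 20 highest genes were the same as by CPM. The genes that entered are short. They were Rplp1, an acidic ribosomal protein, at 4629 ± 435 TPM, S100a9, a subunit of the neutrophil protein calprotectin, at 3890 ± 1229 TPM, Fbxo2, the mitochondrial subunit gene mt-Nd6 at 5147 ± 245 TPM, and Gm23935, a gene of 57 bases annotated as a miRNA at 4963 ± 1816 TPM. Genes that left the list, such as the 20771-base lincRNA Neat1, a scaffold of nuclear paraspeckles with 2445 ± 183 CPM, are long. Neat1 had 361 ± 27.1 TPM and ranked 321 on that scale.

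Genes of the mitochondrial genome, which encodes 13 subunits of the respiratory chain and the mitochondrial ribosomal RNAs, took 2.66% to 3.001% of the counts of a mouse. They made up 6 of the 20 highest genes by CPM and 7 by TPM. The cytochrome oxidase gene mt-Co1 was second on both scales, with 10541, 9193, 9850, 10482 and 10454 CPM, and mt-Cytb (5438 ± 338 CPM), mt-Nd1 (4076 ± 117), mt-Nd5 (2701 ± 213), mt-Nd4 (2520 ± 116) and mt-Nd2 (2061 ± 102) followed. The 13 protein genes summed to 28303, 26646, 27299, 28076 and 29052 scaled CPM, so the highest mouse was 1.09 times the lowest. Levels within this set were far from even. The other cytochrome oxidase genes mt-Co2 (MT:7013-7696, GRCm38) and mt-Co3 had 47.0 ± 3.93 and 32.4 ± 1.28 CPM, the ATP synthase genes mt-Atp6 and mt-Atp8 had 27.5 ± 1.24 and 1.08 ± 0.314, and mt-Nd3 and mt-Nd4l had 3.54 ± 0.641 and 4.64 ± 0.761. By TPM, mt-Co1 was at 20075 ± 1499 and mt-Co2 at 211 ± 16.3, although both subunits belong to the same enzyme.

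Most of the low genes have a sequence that also lies in the nuclear genome. Counted in stretches of 50 bases, 100% of mt-Co2, 99.9% of mt-Co3, 99.5% of mt-Atp6, 98.8% of mt-Nd4l and 98.0% of mt-Nd3 was shared with another annotated gene, against 0% of mt-Cytb, mt-Nd1 and mt-Nd6, 7.61% of mt-Nd5 and 8.19% of mt-Nd2. In between were mt-Co1 with 51.1% and mt-Nd4 with 62.2%, both at high levels. mt-Atp8, of 204 bases, is an exception, with 0% shared and 1.08 CPM. The closest nuclear copies of these 5 genes are unprocessed pseudogenes on the minus strand of chromosome 1. Gm28661 (chr1:24614885-24615565) matches 681 of the 684 bases of mt-Co2 with 0 differences and was at 50.2, 54.9, 55.0, 53.5 and 56.6 CPM, with a mean of 244 TPM against 211 for mt-Co2. Gm28437 (chr1:24613189-24613971) matches 783 bases of mt-Co3 with 0 differences and had 37.0 ± 2.52 CPM, and Gm10925 matches 678 bases of mt-Atp6 with 0 differences and had 37.5 ± 2.22. Their first 60 bases are shown, read 5′ to 3′ from the reference, because each pair is identical.
mt-Co2: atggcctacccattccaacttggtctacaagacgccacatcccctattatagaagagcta
Gm28661: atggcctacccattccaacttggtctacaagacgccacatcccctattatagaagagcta
mt-Co3: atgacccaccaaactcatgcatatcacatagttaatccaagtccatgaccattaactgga
Gm28437: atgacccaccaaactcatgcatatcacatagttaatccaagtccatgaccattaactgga
The counter was run in its default mode, which leaves out a read that aligns to more than 1 place. The levels of mt-Co2, mt-Co3, mt-Atp6, mt-Nd3, mt-Nd4l and their copies are therefore uncertain, and those of mt-Co1 and mt-Nd4 may be counted in part only. How many reads were left out was not tested. The globin genes share sequence in the same way, as 67.5% of Hba-a1 and 86.9% of Hba-a2 lay in stretches common to both, and 65.8% of Hbb-bs and 58.3% of Hbb-bt.

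By gene type, 98.09% ± 0.0691 of the counts fell on protein-coding genes, between 98.01% and 98.18% in single mice. Such a share is usual for poly(A)-selected RNA. Of 45 annotated gene types, 25 had a detected gene. Long intergenic noncoding RNAs took 0.746% ± 0.0231, with 299 of 5559 genes detected, and Neat1 alone was 32.8% of that share. The imprinted Meg3 had 1144 ± 98.2 CPM and Malat1, a nuclear speckle RNA, 271 ± 28.95. Rian, of the same imprinted cluster as Meg3, is annotated as a processed transcript and had 283 ± 47.6 CPM. Peg13, an imprinted RNA with 288 ± 27.0 CPM, was 69.9% of the sense intronic type. Mouse 4 had the lowest lincRNA share, 0.705%, against 0.753% to 0.759% in the others.

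The other types held small shares. Processed transcripts took 0.260% ± 0.00964, antisense genes 0.183% ± 0.00899, and processed pseudogenes 0.179% ± 0.00220, although 9497 such pseudogenes are annotated and only 132 were detected. Immunoglobulin constant genes took 0.0855% ± 0.0294, and the mice differed in it, at 0.114%, 0.0535%, 0.119%, 0.0773% and 0.0640%. Igkc, the kappa light chain constant region, had 320 ± 123 CPM of it. Mice 1 and 3 were highest, and the median biological CV of the 9 detected constant genes was 46.5%. The mitochondrial ribosomal RNAs took 0.0897% ± 0.0102. Nuclear ribosomal RNA took 0.0219% ± 0.00732, 98.5% of it in CT010467.1, and this gene was at 336 scaled CPM in mouse 5 and 149 to 219 in the others. Counted in stretches of 50 bases, 66.4% of CT010467.1 was shared with other annotated genes, so its level and this share are uncertain. Computed from TPM, the protein-coding share was 95.03% ± 0.315, the processed pseudogene share 1.12% and the miRNA share 0.816%, since genes of these types are short.

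Most of the miRNA type came from Gm23935 (chr16:11144125-11144181, plus strand, GRCm38), which lies inside Zc3h7a and took 52.2% of its counts. It was at 104, 79.9, 53.1, 80.6 and 144 CPM in mice 1 to 5. Mouse 5 was the highest for this gene, as it was for CT010467.1, and mouse 3 was the lowest for both. The 57 bases occur with 0 differences at 2 further loci, Gm24245 (chr4:139338304-139338360, plus strand), which had 0 counts in all 5 mice and so at most 3 counts, or 0.150 CPM, in the shallowest library, and Gm24270 (chr9:56223715-56223771, minus strand, within Peak1), at 0.681 CPM. Gm24187 (chr13:9834469-9834525, minus strand) differs at 1 base, G11A counted from the 5′ end, and had 0.370 CPM. The 4 sequences are shown 5′ to 3′, with the base that differs in capitals.
Gm23935: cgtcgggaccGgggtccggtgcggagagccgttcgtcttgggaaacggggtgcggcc
Gm24245: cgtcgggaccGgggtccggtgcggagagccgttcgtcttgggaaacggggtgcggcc
Gm24270: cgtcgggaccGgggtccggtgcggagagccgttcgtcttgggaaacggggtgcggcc
Gm24187: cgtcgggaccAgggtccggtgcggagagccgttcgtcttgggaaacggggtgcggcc
A read that aligns equally to more than 1 of these loci would be left out by the counter. Why the counts fell on 1 of the identical loci was not tested. The library was not made for small RNA, so these are not levels of a mature miRNA.

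Transcription factors were mostly of modest level. Of 1469 annotated factors, 1005 were detected, and their median percentile of TPM among detected genes was 36.4. The highest was Ybx1, a cold shock domain protein, at 308 ± 16.0 TPM. Next came Zic2, a zinc finger factor of the developing nervous system, at 276 ± 71.0 TPM, Id3, an inhibitor of bHLH factors, at 262 ± 28.8, Nfe2l1, a bZIP factor, at 262 ± 26.2 and Sox10, the glial and strial intermediate cell factor, at 240 ± 44.6. Zic2 was at 218, 202, 336, 297 and 232 scaled CPM, with mice 3 and 4 above the others. Scrt1, a neuronal zinc finger repressor, was at 265, 392, 284, 223 and 413, with mice 2 and 5 above the others. Among families, 442 of 576 C2H2 zinc finger genes were detected but only 60 of 232 homeobox genes. The zinc finger genes had a median biological CV of 7.88% and the homeobox genes 15.6%, and these families were not matched for level.

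The cells of the organ were read from marker lists. Hair cell genes were detected for 17 of 19 markers, among them Otof (otoferlin, the calcium sensor of the inner hair cell synapse) at 48.1 TPM and Ocm (oncomodulin of outer hair cells) at 120 TPM. Slc26a5 (prestin, the motor protein of outer hair cells) was not among the detected genes. It had a mean of 1.79 TPM and varied from 0.0465 to 5.57 scaled CPM, with mice 3 and 4 at 2.34 and 5.57 and the others at 0.538 or less. Supporting cells were marked by the gap junction genes Gjb2 and Gjb6 at 1018 and 710 TPM, and marginal cells of the stria by the Na-K-Cl cotransporter Slc12a2 at 341 TPM and the beta subunit Atp1b2 of the sodium pump at 452 TPM. Neurons were marked by the neurofilament genes Nefm and Nefl at 606 and 480 TPM. S100b, the most counted member of the Schwann cell list, was at 4934 TPM, with mice 3 and 4 above the others. The other Schwann members summed to less in mice 3 and 4 (5225 and 5530 scaled CPM) than in the other mice (5678 to 6328). Summed over their lists, spiral ganglion neurons had 0.806% of the counts, Schwann cells 0.816%, fibrocytes 0.705%, supporting cells 0.240%, marginal cells 0.229% and hair cells 0.190%, of which Calb2, also a neuronal gene, made 72.1%. Gjb2 made 33.1% of the supporting cell sum and is also in the fibrocyte list, so it counts in both shares. The 93 hereditary deafness genes found in the files, of which 85 were detected, took 1.09% together.

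Markers of neighbouring tissues were counted as well. The erythroid list took 1.07% of the counts and the neutrophil and myeloid list 0.352%. Of the latter, all 14 were detected, including the granule genes Elane, Mpo and Prtn3 of early myeloid cells, which are transcribed in marrow. Spp1, osteopontin, the most counted member of the osteoblast list, was at 2701 TPM. Without Spp1 that list summed to 1413, 1093, 871, 623 and 832 scaled CPM in mice 1 to 5. With it the sums were 2636, 2419, 2285, 2363 and 2359. Spp1 thus did not follow the other members, and its level is not read as that of bone. Glia of the central nervous system were marked by Gfap at 234 CPM and Mobp at 119 CPM, whereas Opalin, of mature oligodendrocytes, was at 0.0596 CPM. Central neuron markers summed to 27.7 ± 1.71 scaled CPM over 10 genes, and Neurod6 had 0 counts in all mice. Keratinocyte markers summed to 26.0 ± 3.51, with Dsg3 at 0 counts. Pituitary hormone genes, a list added after values had been seen, summed to 11.5, 6.81, 27.9, 5.395 and 28.2, led by Gh at 19.9 and 22.4 in mice 3 and 5 and 1.90 to 3.47 in the other 3.

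Variation between mice was measured as the biological CV, that is the coefficient of variation of scaled CPM over 5 mice after the part due to counting was subtracted, set to 0 where nothing was left, which can also happen by chance with 5 mice. Its median over the 15441 detected genes was 10.2%, with quartiles at 5.78% and 18.6%. The median CV before subtraction was 11.7% and the counting part was 3.94%, so at this depth counting accounted for little of the spread of a typical gene. The common biological coefficient of variation from edgeR, an average over genes that gives weight to the variable ones, was 0.197. Without mice 1 and 2 the median was 8.83% and the common value 0.178. A median CV tends to be lower over fewer mice, and no other pair was left out. The fall is therefore not assigned to these 2 mice. For 7575 genes (49.1%) the biological CV was under 10%, and for 892 (5.78%) it was 0. At the other end, 367 genes (2.38%) exceeded 50%, and 38 exceeded 100%. Without mice 1 and 2 the number over 50% was also 367, whereas by edgeR's tagwise dispersion it was 165 with all mice and 94 without these. In 2151 genes (13.9%) the highest mouse was over 2 times the lowest.

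The spread depended on the level. The detected genes were cut into 10 bins of equal size by mean CPM. In the lowest bin, between 1.11 and 3.61 CPM, the median biological CV was 17.3%, and it was 17.8% in the second bin. It fell to 7.68% in bin 8, at 55.7 to 79.4 CPM, and was 8.79% in the highest bin, at 130 CPM or more. Genes over 50% were most frequent in the second bin, with 110 of 1544, and least frequent in bin 7, with 7. Transcription factors had a median of 9.64%, with 15 of 1005 above 50%. Long intergenic RNAs, with 14.2%, varied more at the median than protein-coding genes, with 10.0%. These groups of genes were not matched for level, on which the spread depends.

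**Figure D3:**
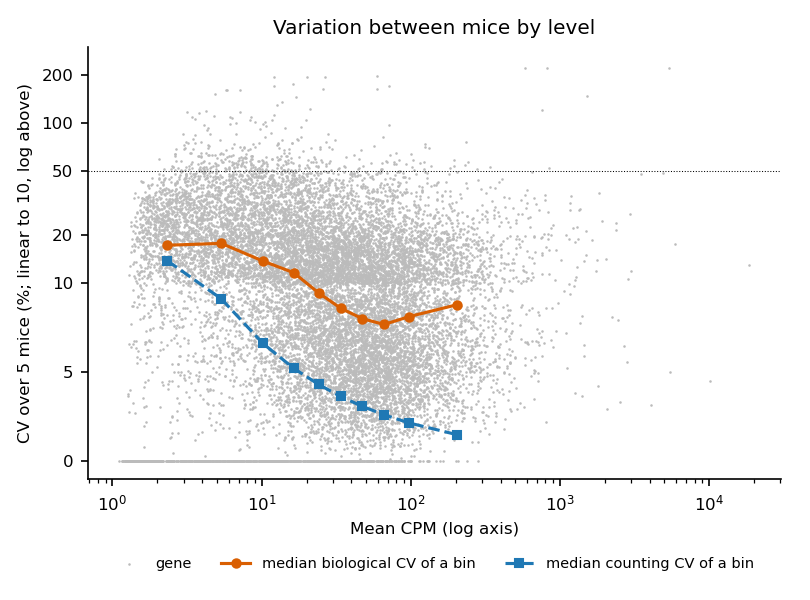
Biological CV over 5 mice (vertical axis, %, linear to 10 and log above) against mean CPM (log axis) for the 15441 detected genes (grey points), with the median biological CV (orange) and the median counting CV (blue) of each of 10 bins, placed at the median CPM of the bin. The orange line starts at 17.3% and 17.8%, falls to 7.68% and ends at 8.79%, and the blue line falls throughout, from 13.8% to 1.48%.

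The steadiest genes had no spread beyond counting, and 892 detected genes were tied at a biological CV of 0. Among genes with a mean of at least 10 CPM, the 15 of these with the lowest CV before subtraction were Atg13, Mdm2, Srp68, Zfx, Phc2, Atp6ap2, Tsc22d4, Pea15a, Sdf4, Siah1a, Srp14, Csnk1g2, Ric8a, Cyp20a1 and Wdtc1, each with the highest mouse at 1.02 to 1.03 times the lowest. That CV lay under the counting part, as in Atg13 with 0.674% against 2.22%, so the choice favours genes with a small spread by chance. Phc2, a Polycomb group gene, was at 130, 131, 129, 132 and 132 scaled CPM. Atp6ap2, an accessory subunit of the vacuolar proton pump, was at 156, 160, 157, 158 and 160, and Srp68, a subunit of the signal recognition particle, was at a mean of 85.4. They were taken from the end of a ranking of 11631 genes, so their order has no weight.

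Genes commonly used as references in quantitative PCR spanned a wide range. Tbp, the TATA-binding protein, had a biological CV of 1.94%, Ppia 4.51%, Pgk1 6.90%, Sdha 7.29%, Rplp0 8.60% and Ywhaz 8.63%. Gapdh, the glycolytic dehydrogenase, had 9.39%, with 998, 1170, 1168, 1242 and 1288 scaled CPM, close to the median gene. Actb had 12.7% and Hprt 10.6%. Less steady were B2m with 18.3% and Tfrc, the transferrin receptor, with 24.0%. Tfrc was at 426, 325, 289, 217 and 355 scaled CPM. Mouse 1 was the highest and mouse 4 the lowest, as for the erythroid genes.

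The most variable genes belonged to mouse 1 and mouse 2. A ranking by CV over 5 mice favours genes that are high in a single mouse, so that pattern follows from the choice of genes. Of the 15 with the highest biological CV among detected genes with a mean of at least 10 CPM, 8 were highest in mouse 2 and 7 in mouse 1. Those of mouse 2 are secreted or epithelial. Muc5b, a gel-forming mucin, was at 2.49, 4201, 12.0, 4.58 and 1.07 scaled CPM in mice 1 to 5, Lyz1, a lysozyme, at 2.10, 3027, 3.03, 1.08 and 4.05, and Pigr, the receptor that carries immunoglobulin A across epithelia, at 10.6, 276, 12.7, 5.14 and 1.26. In each of them mouse 2 alone was high. Lyz2, the lysozyme of macrophages, was at 650, 5655, 391, 569 and 472. The remaining ones were Bpifb1, Muc16, Reg3g and Wfdc18. The 29 genes of mouse 2 included Dmbt1 at 4368 scaled CPM and Tff2, a trefoil peptide of mucous cells, at 1805, which were at 2.54 or less in every other mouse. These and Lipf, whose biological CV of 223.4% exceeded that of every gene of the 15, did not reach 1 CPM in every mouse and so are left out of that ranking.

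Those of mouse 1 are neuronal. Prph, the intermediate filament peripherin, was at 118, 2.43, 4.93, 1.99 and 3.91 scaled CPM, P2rx3, an ATP-gated channel of sensory neurons, at 53.0, 1.86, 1.17, 1.60 and 1.58, and the sodium channel gene Scn7a at 98.95, 5.57, 6.54, 7.42 and 7.82. Again a single mouse was high, which the ranking by CV favours. Avil, Tusc5, Cacna1h and Pirt had the same pattern. Below 10 CPM on average, Tlx3, a factor of sensory neurons, was at 11.2 in mouse 1 and at most 0.419 in the others, and the fast muscle genes Myh4, Myh1, Atp2a1 and Tnnt3 were also among the 27 genes of this mouse. Without mice 1 and 2, the biological CV of P2rx3 and Cacna1h was 0% and that of Scn7a 4.62%, while Reg3g still had 142% and Muc5b 94.5%.

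**Figure D4:**
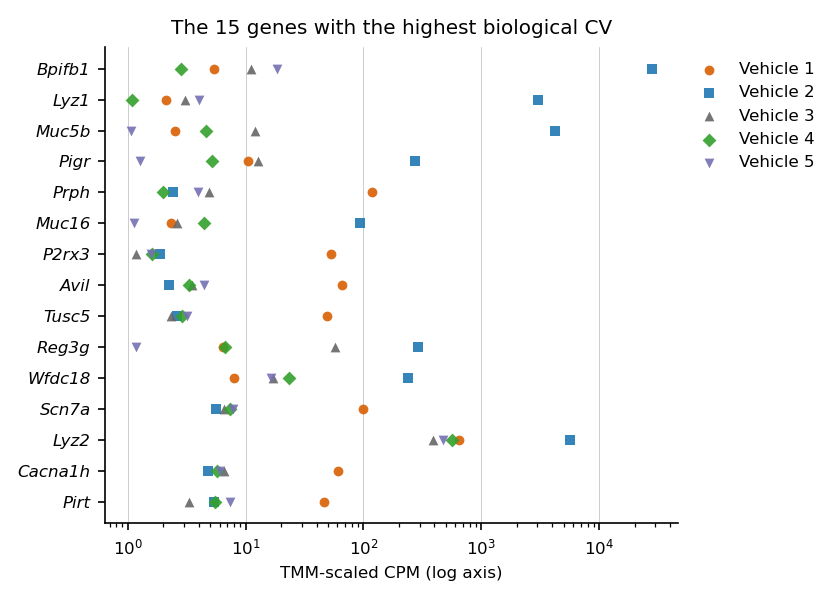
Scaled CPM (log axis) in each mouse of the 15 genes with the highest biological CV (rows, in order) among detected genes (at least 1 CPM in every mouse) with a mean of at least 10 CPM. In 8 rows mouse 2 lies to the right of the other points and in 7 rows mouse 1 does. The ranking by CV favours genes that are high in a single mouse.

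Among the 367 genes over 50%, the highest value was in mouse 1 for 177 (48.2%), in mouse 4 for 70, in mouse 2 for 63, in mouse 3 for 46 and in mouse 5 for 11. Over all detected genes these shares were 22.8%, 23.9%, 15.5%, 16.9% and 20.8%. The lowest value was in mouse 5 for 122 (33.2%), in mouse 3 for 84, in mouse 4 for 76, in mouse 2 for 48 and in mouse 1 for 37. Over all detected genes, mice 1 to 5 were the lowest for 21.6%, 20.1%, 18.4%, 25.04% and 14.9%. Mouse 3 had 5 genes at 4 or more times any other mouse, of which 4 were immunoglobulin kappa variable genes and the other was Fosb, an immediate early gene, at 15.8 scaled CPM against 0.928 to 3.72. In mouse 4 both such genes, Igkv3-10 and Igkv10-94, were kappa variable genes. In the opposite direction, 25 genes of mouse 5 lay at or under 0.5 times the level of every other mouse, among them the axonemal genes Dnah5, Dnah9, Hydin, Rsph1 and Ccdc153. Pairs of mice had Spearman correlations over genes of 0.969 (mice 1 and 4) to 0.989 (mice 3 and 4), and 196 to 854 genes lay over 2-fold apart. The median absolute log2 difference over detected genes was 0.128 for mice 3 and 4. Among mice 1, 2 and 5 it was 0.136 to 0.155. For pairs of these with mouse 3 or mouse 4 it was 0.177 to 0.217. Over all detected genes, mice 3 and 4 were thus set apart from mice 1, 2 and 5. No pair differed as little as counting error alone would allow.

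Sums over marker lists varied to unlike degrees. Of 38 lists, 11 had a sum over 2 times higher in the highest mouse than in the lowest, and 12 had a ratio under 1.3. Without mice 1 and 2 only 3 lists exceeded 2, those of erythroid cells, cell cycle and neutrophils. Leaving out mice can hardly raise such a ratio, and no other pair was left out. The erythroid list summed to 17942, 12011, 7657, 4115 and 11489 scaled CPM, a ratio of 4.36, and 2.79 without mice 1 and 2. All 10 of its members were highest in mouse 1 and lowest in mouse 4. The cell cycle list had the same ends, with 1105, 660, 454, 339 and 871, and all 15 members highest in mouse 1 and 14 lowest in mouse 4. Mki67, a protein of dividing cells, was at 352, 164, 146, 98.1 and 263. The neutrophil list summed to 4027, 6150, 1603, 2596 and 3315, and all 14 members were lowest in mouse 3. Ltf, lactoferrin, which glands also secrete, raised mouse 2 with 2451 against 241 to 515. Platelet genes, added after values had been seen, followed at 843, 771, 138, 320 and 268, with all 10 lowest in mouse 3. Osteoclast markers such as Acp5, at 123, 63.6, 21.6, 27.8 and 45.0, were highest in mouse 1 for all 6 detected members.

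The inner ear lists had another order of mice. Strial marginal markers summed to 1552, 1690, 2414, 3606 and 2164 scaled CPM, a ratio of 2.32, and all 12 were highest in mouse 4, from Slc12a2 at 512, 607, 738, 1055 and 684 to Kcnq1, the potassium channel of the endolymph face, at 36.6, 38.1, 66.1, 109 and 50.6. Mice 1 and 2 each held the lowest value of 6 of these markers. Supporting cell and tectorial markers summed to 1790, 1759, 3261, 3353 and 1781, so that mice 3 and 4 were set apart from the other 3. Epyc, a proteoglycan of supporting cells, was at 105, 57.8, 227, 231 and 38.3, and Tecta, alpha tectorin, at 9.33, 10.5, 39.2, 33.4 and 23.3. Hair cell markers summed to 1450, 2082, 2101, 1679 and 2215. This sum followed Calb2, at 1087, 1727, 1428, 849 and 1779. As the mean log2 of the members, mouse 4 was the highest at 5.41, against 4.26 in mouse 2. Of the 17 detected markers 13 were highest in mouse 4, and 10 were lowest in mouse 2. Otof was at 71.7, 63.2, 197, 199 and 77.9, again with mice 3 and 4 above the others. Fibrocyte markers ranged over 1.80 times and pigment and intermediate cell markers over 1.91 times. Of the 85 detected deafness genes, 48 were highest in mouse 4 and 24 in mouse 3.

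Neural lists had their own order. Spiral ganglion markers summed to 7600, 9396, 6943, 6518 and 9957 scaled CPM, with mice 2 and 5 above the others in the sum, of which Calb2 made 17.0%. As the mean log2 of the members, mouse 1 was the highest at 7.68, against 7.32 in mouse 2 and 7.42 in mouse 5. By members, 9 were highest in mouse 5, 7 in mouse 1 and 2 in mouse 2. The mean log2 includes Prph, at 118 in mouse 1 and at most 4.93 in the others. Of the 20 members, 10 were lowest in mouse 3 and 9 in mouse 4. Schwann markers differed by 1.12 times, with mouse 1 the lowest in the sum. Without S100b, 29.1% of that sum, the ratio was 1.21 and mouse 3 was the lowest, at 5225 against 5678 in mouse 1. Of the Schwann members, 7 were lowest in mouse 3 and 5 in mouse 1. Markers of central glia summed to 187, 542, 564, 693 and 595, a ratio of 3.70 that fell to 1.23 without mice 1 and 2, and all 9 detected members were lowest in mouse 1. Gfap, the astrocyte filament, was at 69.8, 238, 248, 337 and 281, and Mobp, of central myelin, at 40.4, 143, 126, 146 and 142. The list of somatosensory and cranial ganglion neurons, chosen after values had been seen, was at 369 in mouse 1 and 20.9 to 33.5 in the others. Mouse 1 was thus low in central glia markers. Its high sum in the ganglion neuron list has no weight as a result, since that list was chosen with the values in view.

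Mucosal and ciliated cell markers had extremes in mice 2 and 5. The middle ear mucosa list summed to 1876, 33605, 1445, 1239 and 829, a ratio of 40.5. Bpifb1 made 71.8% of it, and without that gene the sums were 1871, 5632, 1434, 1237 and 811, a ratio of 6.94. Of 8 detected members, 4 were highest in mouse 2. The macrophage list ranged over 7.21 times, but over 1.40 times without Lyz2. Mouse 2 was still the highest without that gene, at 591 against 422 to 479, and 10 of the 13 members were highest in it. Bpifa1, a secreted protein of the middle ear and airway lining, was not high in mouse 2, with 1741, 950, 1218, 1136 and 761. Motile cilia genes, added after values had been seen, summed to 414, 263, 440, 287 and 128, and 13 of 14 were lowest in mouse 5. Foxj1, the factor of motile cilia, was at 61.6, 60.5, 82.1, 44.5 and 31.6. Lists of the cell's own machinery were among the steady ones, with ratios of 1.09 for proteins of the mitochondrial genome, 1.10 for heat shock, 1.15 for nuclear oxidative phosphorylation and 1.19 for cytosolic ribosomal proteins, although 72 of 79 detected ribosomal genes were lowest in mouse 4. The part that the amount of marrow, bone, nerve or mucosa in a dissection had in these differences was not tested.

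**Figure D5:**
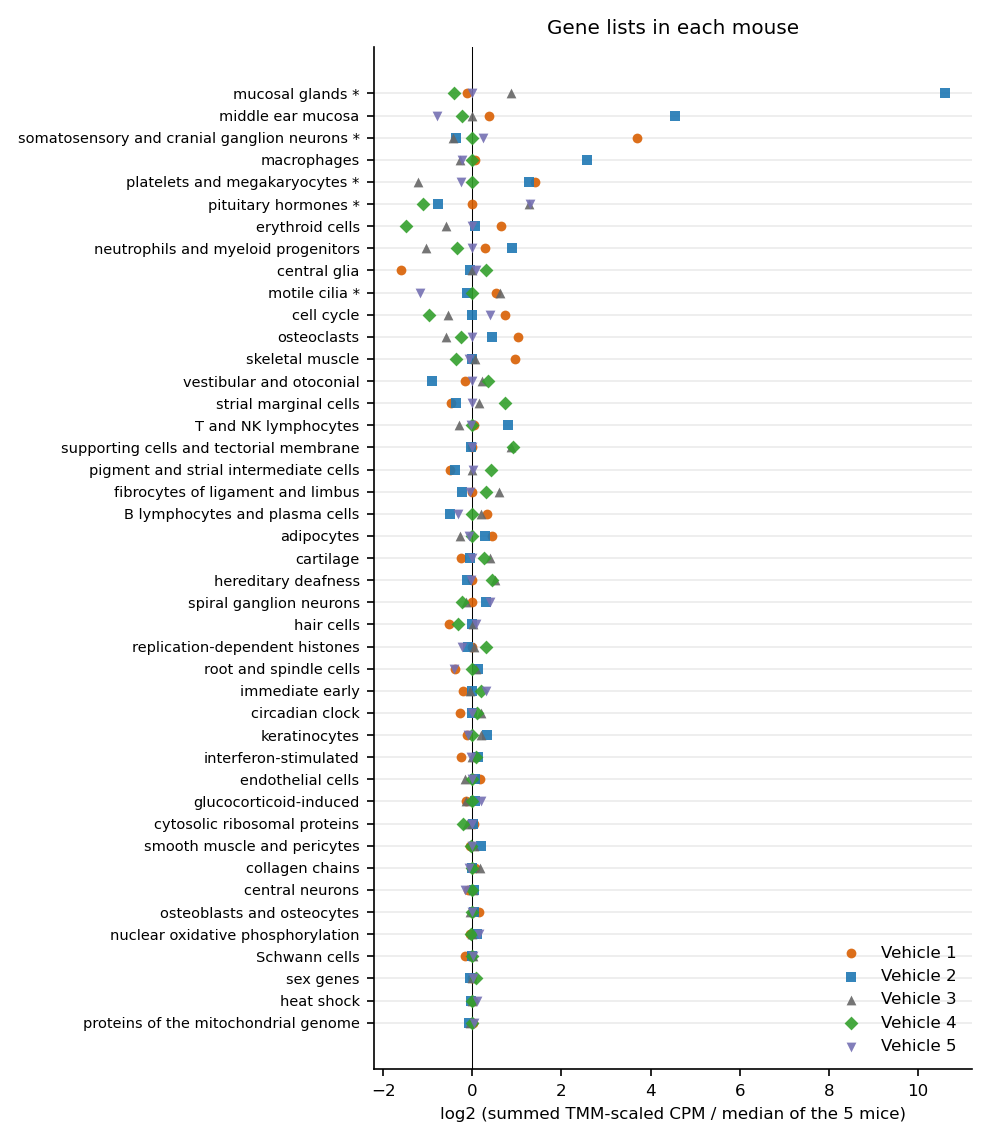
Sum of scaled CPM of each gene list in each mouse relative to the median of the 5 mice (log2, horizontal axis), with lists in order of the ratio of the highest to the lowest mouse. An asterisk marks the 5 lists chosen after values had been seen. Mouse 2 stands out for mucosal glands, middle ear mucosa and macrophages, mouse 1 for somatosensory neurons (high) and central glia (low), and the points of the lowest rows lie together.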

How the data were processed

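RNA of the whole cochlea of 5 non-treated mtKeima mice was analysed. The authors deposited raw read counts per gene, made from poly(A) paired-end libraries by the sequencing provider with STAR version 2.6.1d (2 mismatches allowed) on mm10 and featureCounts version 1.5.0 with default settings, that is without strand. The annotation release is not given in the sources used here. The counts are not normalized. Replicates are separate mice. Totals of 20004667 to 24419230 counts give 1 CPM a count of 20 or more.

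CPM, TPM (from the gene lengths in the files) and TMM-scaled CPM were computed here, with 0.5 added before a log2. The biological CV is the square root of the squared CV of scaled CPM minus the squared counting CV. It was tested on simulated data, where its median over genes lay slightly under the true CV. Dispersions came from edgeR version 4.0.16, and DESeq2 version 1.42.0 was an alternative, with R version 4.3.3 and python version 3.11.15. The named genes are the 20 highest by CPM and by TPM, the 15 most and least variable detected genes (1 CPM in every mouse) at a mean of 10 CPM or more, the highest of each gene type, and members of lists. Others (genes of single mice, reference genes, transcription factors, nuclear copies) were chosen after their values were seen. The members and lists were chosen with earlier results of these data known. Alternatives were other filters, scalings and measures of spread, and leaving out mice. Promoter motifs were not analysed, since RefSeq promoters matched 11581 of 15441 genes (75.0%), under the 80% needed. Sequences were read from the GRCm38 reference, the build also known as mm10. A few genes are not reported here, and NR-treated mice were not used here.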

Additional observations from a re-analysis of the deposited data

Results flagged for a closer look

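Of 127 items looked at (lists, library measures, gene types and named genes), 28 had 1 mouse far from the other 4. This was judged by the gap to the nearest mouse divided by the whole range. Chance alone passes the cut in about 1 in 20 groups, for independent items not chosen by their values. The extreme mouse was mouse 2 for 14 items, mouse 1 for 11, mouse 4 for 2, mouse 5 for 1 and mouse 3 for 0. The genes had been named for their level or spread, and 5 of the lists were added after values had been seen. The same genes also recur in lists and library measures. The items are therefore no fair sample, and 28 of 127 cannot be set against 1 in 20.

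Mouse 2 was the highest for the lists of macrophages (0.9576), middle ear mucosa (0.9681), mucosal glands (0.9993) and T and NK cells (0.7642), for the share of the 10 most counted genes (0.8479), and for the genes Bpifb1 (0.9994), Lipf (0.9996), Lyz1 (0.999), Muc5b (0.9974), Pigr (0.9584), Muc16 (0.9637), Reg3g (0.8074), Wfdc18 (0.933) and Lyz2 (0.9506). Mouse 1 was the highest for the lists of skeletal muscle (0.7774) and somatosensory neurons (0.964) and for Prph (0.9746), P2rx3 (0.9868), Avil (0.9654), Tusc5 (0.9823), Scn7a (0.976), Cacna1h (0.9677) and Pirt (0.9067). It was the lowest for the Schwann cell list (0.8988), though not without S100b, and for Cyp20a1 (0.8649). Cyp20a1 is a steady gene whose highest mouse was 1.03 times the lowest. Mouse 4 was the lowest for the lincRNA share (0.8879) and for Srp14 (0.7484), and mouse 5 the highest for the sense intronic share (0.7513).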

How the results depend on the processing

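Genes detected ranged from 12506 (5 CPM in every mouse) to 16649 (0.5 CPM), leaving out 1 mouse gave 15510 to 15599, and leaving out mice 1 and 2 gave 15655. Genes holding 50% of the counts were 558 by TPM, and 1364 to 1423 when a mouse was left out. The protein-coding share was 95.03% by TPM. The median biological CV of 10.2% became 10.5% with total counts only, 11.7% with 1 count in every mouse, 8.52% with 10 CPM, 10.8% with a mean of 1 CPM, 11.7% for the plain CV, and 8.83% without mice 1 and 2, and leaving out 1 mouse gave 9.34% to 10.4%. The 367 genes over 50% became 1642 with 1 count in every mouse, 687 with a mean of 1 CPM, 63 with 10 CPM and 165 by edgeR's tagwise dispersion, and 316 to 471 when a mouse was left out. In the same order of filters the common BCV was 0.234, 0.232 and 0.146, with 0.131 for the median DESeq2 dispersion and 0.178 without mice 1 and 2, and 0.188 to 0.207 when a mouse was left out. The filters change which genes are counted, and not only low genes enter or leave. A mean of 1 CPM admits Lipf, with a mean of 2167 CPM, and 10 CPM in every mouse leaves out Bpifb1, with 5410 CPM. The part that low genes had in the filter values was not tested. The share of variable genes highest in mouse 1 lay between 35.0% and 61.1%. Lists with a ratio over 2 were 3 without mice 1 and 2, which was chosen after seeing the data, and 8 to 11 when 1 mouse was left out. Of 342 alternative list ratios 20 moved by over 1.5 times, and of 486 alternative gene CVs 35. The share of promoters with a motif was not run, since too few promoters matched. No paired analysis was possible because there is 1 group.

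Depth limits genes near 1 CPM, where 3 counts are 0.123 to 0.150 CPM. The 5 libraries give the spread of these mice only, and the amount of marrow and middle ear tissue in each library is not given in the sources used here.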

Other observations

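Lists of cell states also differed between mice, over a smaller range. Circadian clock genes summed to 1235, 1503, 1718, 1609 and 1490 scaled CPM, and 10 of 16 were lowest in mouse 1. Immediate early genes, which respond to stimulation within minutes, differed by 1.43 times and 10 of 15 detected members were lowest in mouse 1. Interferon-stimulated genes differed by 1.31 times and 10 of 14 were lowest in mouse 1. Glucocorticoid-induced genes differed by 1.25 times. Collection times were not analysed here. For these lists no test was made, since mouse 1 is a single animal.

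Further cell types fell between these. B lymphocyte and plasma cell markers differed by 1.77 times, adipocyte markers by 1.64 times, cartilage markers by 1.57 times, replication-dependent histone genes by 1.46 times, root and spindle cell markers by 1.44 times, endothelial markers by 1.26 times, and smooth muscle and collagen genes by 1.18 times. T and NK lymphocyte markers were at 34.7 scaled CPM in mouse 2 and 16.3 to 20.6 in the others. Skeletal muscle markers were at 149 in mouse 1 and 59.5 to 79.5 in the others. Vestibular and otoconial markers were lowest in mouse 2, at 22.1, and at 37.0 to 53.0 in the others. The osteoblast list differed by 1.15 times, but by 2.27 times without Spp1, and 9 of its 13 members were lowest in mouse 4.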
